A study of Homo sapiens with 12 samples.

Results

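The 60 genes described here encode chemokines, cytokines of the interleukin-6 (IL-6) and tumour necrosis factor (TNF) families with their receptors, acute-phase proteins, and the subunits and inhibitors of the transcription factor NF-kB. They were followed across 12 arrays of cells derived from MCF-10A, an immortalised human mammary epithelial line that does not form tumours. A gene was measured where a probe set carried its symbol, and no other, in the annotation given for the series. Of the 60 genes, 52 had such a probe set, 1 each, among 17687 named genes in all. CSF2, TNF, TNFRSF1B, ZC3H12A, BIRC3, SAA2, SAA4 and SOD2 were not analysed here. The 3 groups had 4 arrays each. The co-culture held cells with the HER2 L755S mutation (the receptor tyrosine kinase HER2) and cells with the PIK3CA E545K mutation (the catalytic subunit of PI3K), grown together. The other groups were each of these isogenic lines grown alone. All cultures received physiologic EGF and no further treatment, and were harvested after 7 to 14 days, once HER2 L755S cells made up about 75% of the co-culture as counted by ddPCR. Unmutated MCF-10A cells were not analysed here, so that neither line can serve as the baseline of the other. Whether each line is a single clone is not given in the sources used here. Nothing in the labels says that the 4 replicates came from separate cultures, so p-values measure the spread between these samples, which may be technical.

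NF-kB is a family of dimeric transcription factors held in the cytoplasm by IkB proteins. Signals from TNF, interleukin-1 or Toll-like receptors lead to destruction of the IkB protein, and the freed dimers enter the nucleus and switch on chemokines, cytokines and adhesion molecules, along with their own inhibitors, which close a feedback loop. IL-6 family cytokines act through receptors that share the subunit gp130 and through the kinase JAK1 and the factor STAT3, which together with NF-kB and C/EBP factors drive acute-phase genes. In breast epithelium these genes belong to the innate defence of the tissue, and several of the chemokines attract neutrophils.

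Values are deposited log2 probe-set signals, so a difference of 1 is a doubling of signal. The array medians were 6.41 to 6.49. An array was taken as above background for a probe set when its signal exceeded the 95th percentile of its own 612 negative control probe sets, a limit of 6.32 to 7.12. The limit was 6.37 to 6.66 on co-culture arrays, 6.73 to 7.12 on HER2 L755S arrays and 6.32 to 6.39 on PIK3CA E545K arrays. The same signal can thus pass in 1 group and not in another. Of 13 markers of basal breast epithelium, 8 had a named probe set, and all 8, with KRT5 and KRT14 among them, were above background in every group. The 6 endothelial markers were above background in no group. Among 12 measured leukocyte markers CD14, CD68 and CSF1R were above background in the co-culture and in PIK3CA E545K cells, and none was in HER2 L755S cells, while PTPRC (CD45) and CD3E were above it in no group. The log2 of the list's summed signal was 9.64 to 9.73 in the co-culture, 8.78 to 8.93 in HER2 L755S cells and 9.82 to 10.14 in PIK3CA E545K cells. Of 7 measured fibroblast markers, COL1A2 and DCN were above background in all groups. COL1A1 was above it in PIK3CA E545K cells alone, although its mean was 6.48 there and 6.56 in HER2 L755S cells, whose limits were higher. The summed signal of the fibroblast list was 9.61 to 9.80 in the co-culture, 10.94 to 11.31 in HER2 L755S cells and 8.98 to 9.47 in PIK3CA E545K cells. These sums ran in the same order as several of the members below, and their part in the results was not tested.

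The first question was which members the arrays detected. With a group counted as above background when at least 3 of its 4 arrays were, 30 of the 52 measured members were above background in the co-culture, 27 in HER2 L755S cells and 29 in PIK3CA E545K cells. The members above background in all 3 groups numbered 25, or 15 with the 99th percentile of the controls as the limit, and 32 were above it in at least 1. CXCL8, CXCL14, IL11, LTB, TNFAIP2, CEBPD and SOCS2 were above background in some groups but not all. IL6 and LIF passed on single co-culture arrays only, IL6 on 2 and LIF on 1. The other 18 were above background on no array. These were CXCL5, CXCL6, CXCL10, CCL2, CCL5, CX3CL1, CSF3, IL24, NFKBIB, NFKBIE, TRAF1, IRAK2, LCN2, PTX3, HP, TNFAIP6, SOCS1 and SOCS3. The neutrophil protein LCN2 and the plasma protein HP (haptoglobin), both acute-phase products in liver, thus gave no signal above the controls, whereas SAA1 did on every array.

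Differences were tested with limma on all genes whose signal exceeded the 30th percentile of the array on at least 4 arrays. This filter kept 12774 genes and 43 members, and CXCL5, CCL2, IL24, NFKBIB, TRAF1, IRAK2, LCN2, HP and SOCS1 were not tested. CSF3 and PTX3 passed it through the co-culture arrays alone. Both are among the 13 and 19 members counted next as higher in the co-culture, and nothing is read from their place in those counts. In the co-culture against HER2 L755S cells, 13 members were higher and 13 lower at a Benjamini-Hochberg adjusted p under 0.05, against 24.9% and 26% of all tested genes. In the co-culture against PIK3CA E545K cells, 19 members were higher and 4 lower, against 11.1% and 14.6% of all genes. In HER2 L755S against PIK3CA E545K cells, 20 members were higher and 7 lower, against 30% and 29.4% of all genes. The median log2 difference of the tested members was 0.05, 0.29 and 0.21 in these 3 comparisons, and that of all genes was -0.05, -0.02 and 0.05. The comparisons share arrays and are not independent of each other.

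**Figure D1:**
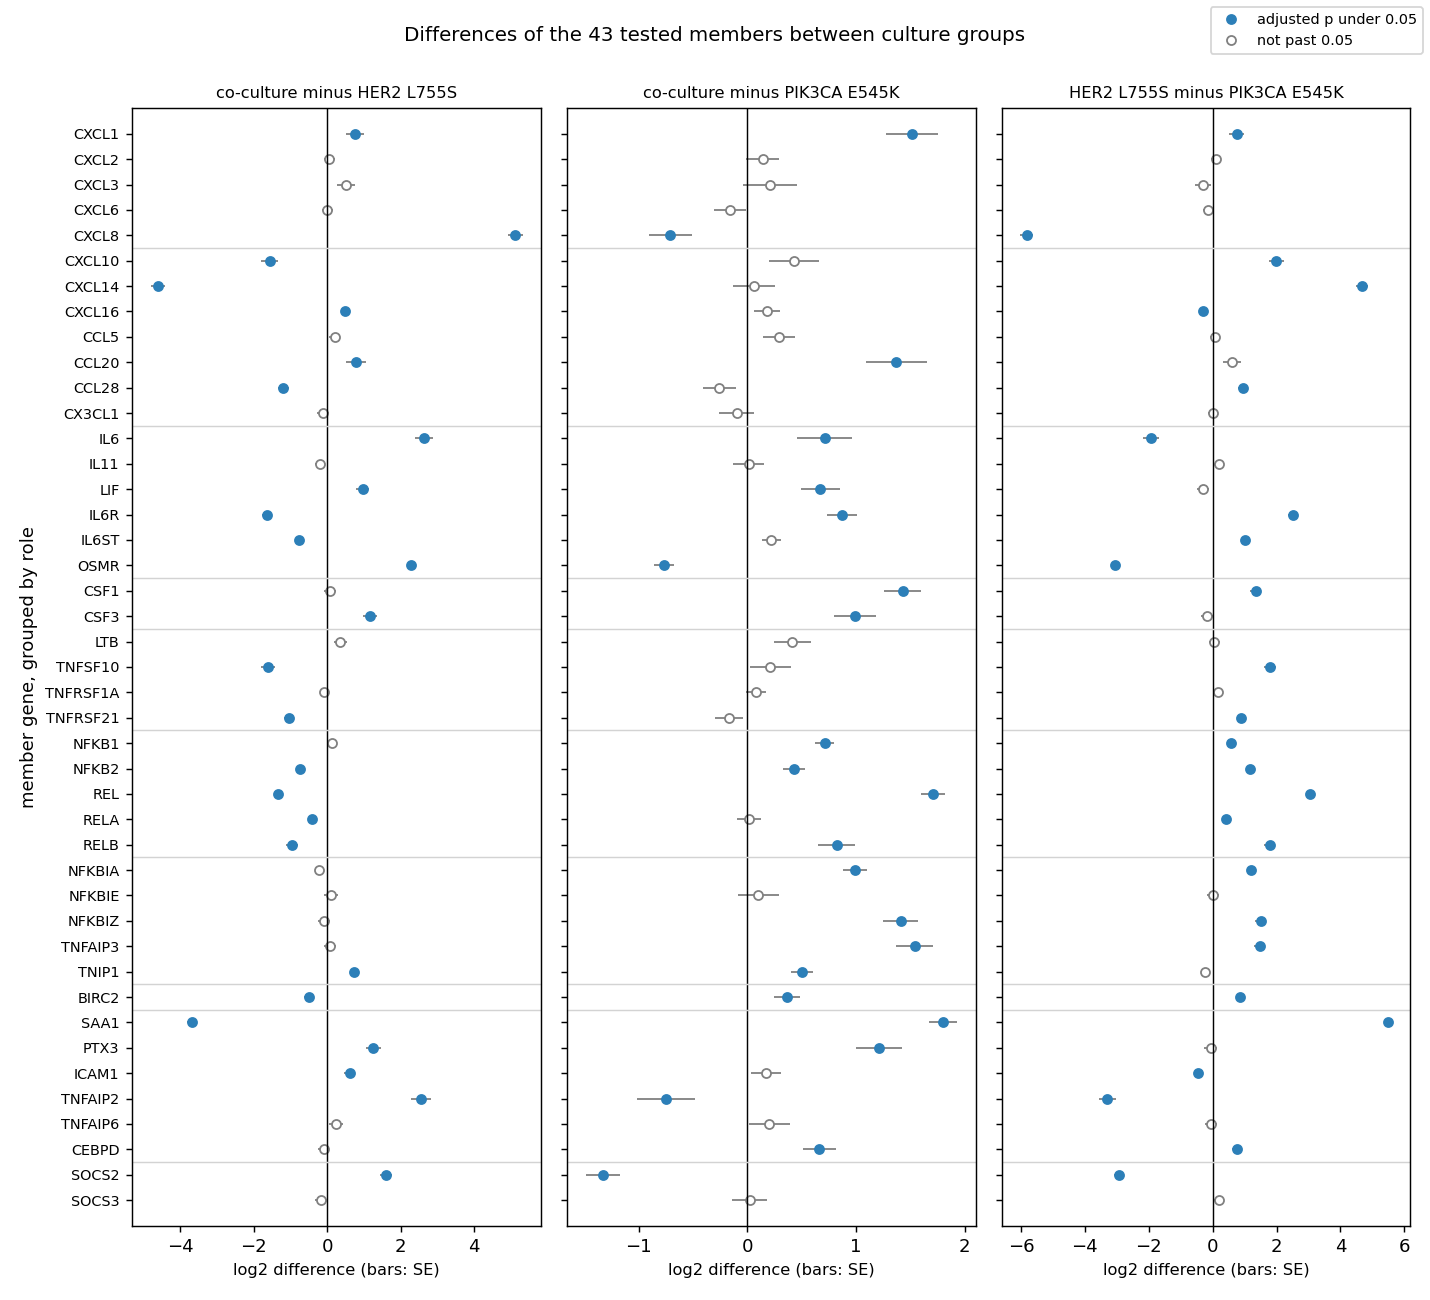
Log2 difference (x axis, bars are the SE from limma, n = 4 arrays per group) of the 43 tested members (rows, divided by grey lines into roles) in 3 comparisons, with filled points at an adjusted p under 0.05 and an x scale of its own in each panel. The NF-kB subunits NFKB1, NFKB2, REL, RELA and RELB are all filled and right of 0 in HER2 L755S minus PIK3CA E545K, and CXCL8 and SAA1 lie at opposite ends of that panel, at -5.82 and 5.48.

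The members among the neutrophil-attracting CXC chemokines, which share the amino acid motif ELR, are encoded close together on chromosome 4. Their order is CXCL8, CXCL6, CXCL1, CXCL5, CXCL3 and CXCL2, with PF4V1, PF4 and PPBP, which are not members, between them. The 6 members' promoters are shown because all hold an NF-kB-type sequence near the gene start, although the signals of the genes differed. The stretches come from RefSeq promoter windows of GRCh38.p14, 250 bases before to 50 after the start, and run 5′ to 3′ along the gene. They are chr4:73869289-73869349 (plus strand) for CXCL1, chr4:74099238-74099298 (minus) for CXCL2, chr4:74038733-74038793 (minus) for CXCL3, chr4:73998733-73998793 (minus) for CXCL5, chr4:73836563-73836623 (plus) for CXCL6 and chr4:73740453-73740511 (plus) for CXCL8. Capitals mark the match to the NF-kB consensus or, in CXCL8, to the shorter palindromic form GGAANTTCC, and the first capital lies 79, 78, 79, 91, 90 and 91 bases before the start, in the order listed.
CXCL1: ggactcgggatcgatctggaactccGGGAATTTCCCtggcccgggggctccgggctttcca
CXCL2: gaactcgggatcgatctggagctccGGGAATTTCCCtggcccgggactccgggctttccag
CXCL3: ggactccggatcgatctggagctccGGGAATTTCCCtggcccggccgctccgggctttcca
CXCL5: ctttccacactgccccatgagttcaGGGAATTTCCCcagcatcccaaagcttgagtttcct
CXCL6: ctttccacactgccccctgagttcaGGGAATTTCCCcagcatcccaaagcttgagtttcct
CXCL8: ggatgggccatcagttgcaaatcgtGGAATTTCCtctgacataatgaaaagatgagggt

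Over all 46 members with such a window, the NF-kB consensus, sought on both strands, was found in 20 (43.5%) against 7.09% of all 27305 genes, or 5.91% of all 35116 windows. GGAANTTCC, which overlaps the consensus, was found in 13 members (28.3%) against 1.16% of all genes and 0.965% of all windows. The members were listed as NF-kB response genes, so these shares describe the list and are not evidence about these cultures. CXCL16, CCL2, CCL5, CX3CL1, LIF, CSF1, CSF3, RELB, NFKBIE, SAA1, SAA2, HP, CEBPD and SOCS2 had no window.

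CXCL8 (interleukin-8), the best known of these neutrophil attractants, had the largest difference between the lines among the 5 tested ELR-type genes. Its signal was 11.76, 12.08, 11.91 and 11.31 in the co-culture, 7.06, 6.28, 7.03 and 6.22 in HER2 L755S cells, and 12.63, 12, 12.94 and 12.31 in PIK3CA E545K cells. Only 2 of the 4 HER2 L755S arrays were above background, and every HER2 L755S array was below every other array. With each HER2 L755S array at the higher of its background limit and its own signal, the co-culture was at least 26.2-fold higher than HER2 L755S cells, and HER2 L755S was at least 42.7-fold lower than PIK3CA E545K cells. As measured, CXCL8 was lower in HER2 L755S than in PIK3CA E545K cells by a log2 difference of -5.82 (SE 0.20, adjusted p = 6.52e-17) whereas the co-culture exceeded HER2 L755S cells by 5.12 (SE 0.20, adjusted p = 1.26e-15). Against PIK3CA E545K cells the co-culture was lower by a difference of -0.71 (SE 0.20, adjusted p = 0.0125) and the arrays overlapped. That call was lost without PIK3CA E545K replicate 3 (adjusted p = 0.0649) or, at a lower value, without co-culture replicate 4. In a mixed culture, signal alone does not tell fewer cells of a type from less RNA per cell, here and for the members below. A level above both single cultures lies outside every blend and is taken up further below.

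CXCL1, which acts on the same receptor CXCR2 as its close relatives, followed another order, with the co-culture on top. It had 8.65, 9.62, 9.92 and 9.18 in the co-culture, 8.53, 8.91, 8.72 and 8.16 in HER2 L755S cells, and 7.93, 7.33, 8.45 and 7.61 in PIK3CA E545K cells. Every co-culture array exceeded every PIK3CA E545K array, with a difference of 1.51 (SE 0.24, adjusted p = 4.37e-05). It was higher than HER2 L755S cells by 0.76 (SE 0.24, adjusted p = 0.01) with overlap of 1 co-culture array, a call lost without co-culture replicate 3 (adjusted p = 0.0576). HER2 L755S was higher than PIK3CA E545K cells by 0.75 (SE 0.24, adjusted p = 0.0092), with overlapping arrays.

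CXCL2 and CXCL3 passed the test in no comparison. CXCL2 lay between 10.56 and 10.93 in the co-culture, 10.56 and 10.80 in HER2 L755S cells and 10.13 and 11.08 in PIK3CA E545K cells, so that all groups overlapped. CXCL3 lay between 7.39 and 7.64 in the co-culture, between 5.98 and 7.75 in HER2 L755S cells, where 3 of 4 arrays were above background, and between 6.96 and 7.58 in PIK3CA E545K cells. CXCL5 and CXCL6, which carry the same capital letters in their promoters as CXCL1, CXCL2 and CXCL3, stayed below background on all 12 arrays. CXCL1, CXCL2 and CXCL3 resemble each other in sequence, and how far their probe sets share signal is not known here.

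**Figure D2:**
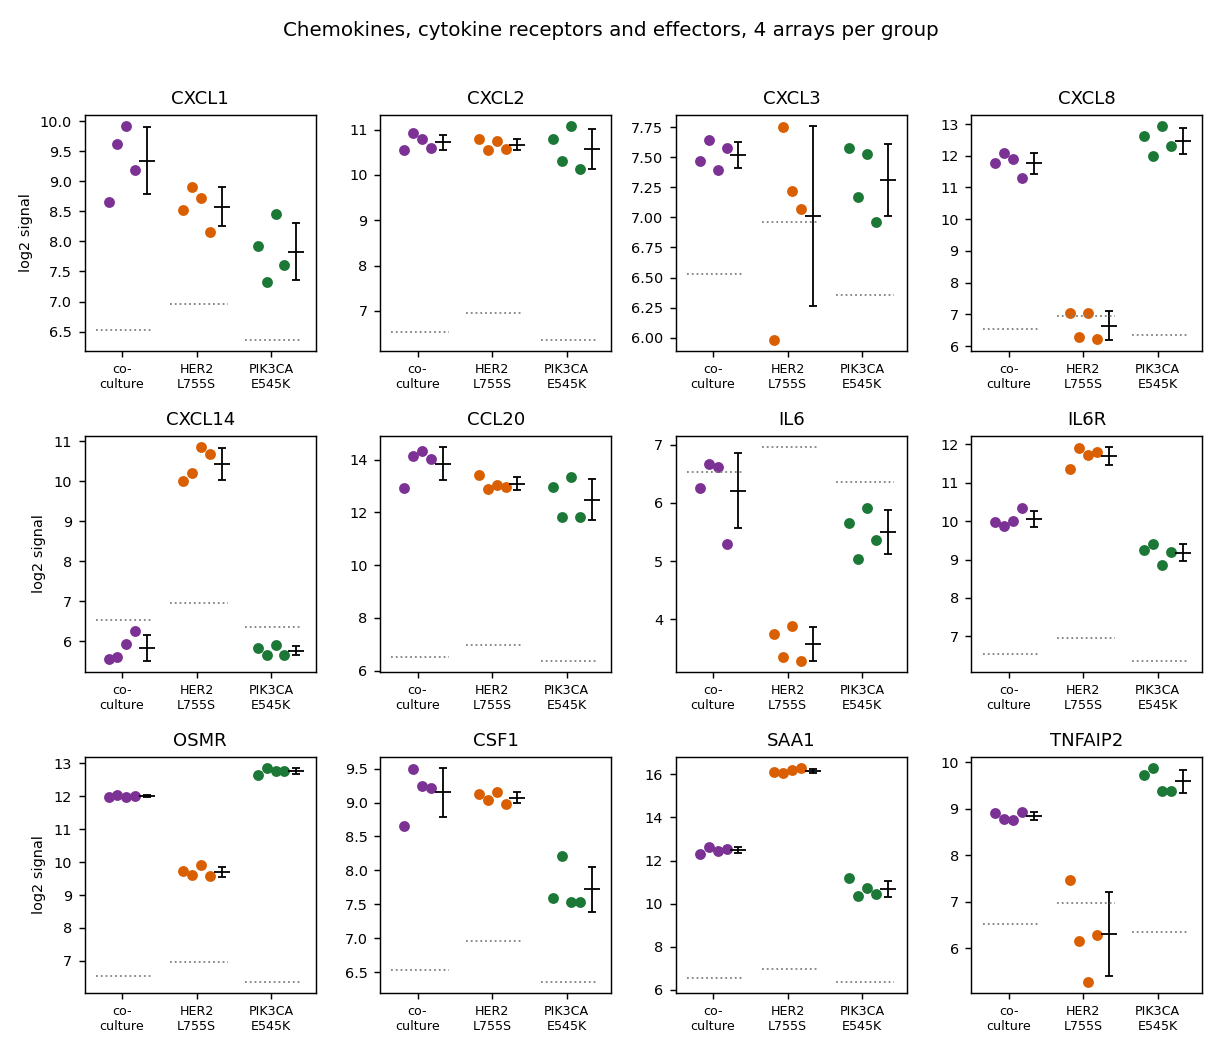
Log2 signal (y axis, a scale of its own in each panel) of 12 members on every array, with the co-culture, HER2 L755S and PIK3CA E545K cells from left to right, the mean and SD (n = 4) beside the points, and dotted lines at the mean background limit of each group. CXCL8 and TNFAIP2 are at or near the limit in HER2 L755S cells alone, CXCL14 is above it in HER2 L755S cells alone, and SAA1 averages 12.47 in the co-culture, 16.16 in HER2 L755S cells and 10.68 in PIK3CA E545K cells.

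Among the other chemokines, CXCL14, an epithelial chemokine that attracts monocytes and dendritic cells, was bright in HER2 L755S cells alone. It had 5.55, 5.60, 5.93 and 6.25 in the co-culture, 10.02, 10.20, 10.86 and 10.69 in HER2 L755S cells, and 5.83, 5.66, 5.92 and 5.67 in PIK3CA E545K cells. No array of the co-culture or of PIK3CA E545K cells was above background. With the dim group set, on each array, to the higher of the background limit and the probe set's own signal, HER2 L755S cells were at least 17-fold higher than PIK3CA E545K cells (adjusted p = 7.49e-16). The co-culture was at least 15.1-fold lower than HER2 L755S cells (adjusted p = 1.73e-15), although about 75% of its cells carried the HER2 mutation.

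CCL20, which attracts immature dendritic cells and Th17 cells through CCR6, had 12.92, 14.12, 14.33 and 14.03 in the co-culture, 13.43, 12.88, 13.04 and 12.96 in HER2 L755S cells, and 12.96, 11.81, 13.33 and 11.82 in PIK3CA E545K cells. On 3 of 4 co-culture arrays it exceeded every single-culture array. Relative to PIK3CA E545K cells the co-culture was higher by 1.37 (SE 0.28, adjusted p = 0.000693) and relative to HER2 L755S cells by 0.78 (SE 0.28, adjusted p = 0.0235). The second call was lost without HER2 L755S replicate 2 or any 1 of co-culture replicates 2, 3 and 4, with adjusted p up to 0.0935, and also without the trended prior (adjusted p = 0.0715) or with a robust one (0.153). The single cultures overlapped, and their difference of 0.60 did not pass (SE 0.28, adjusted p = 0.0699).

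CCL28, a mucosal chemokine of epithelial cells, had 7.72, 8.05, 8.0 and 7.98 in the co-culture, 8.77, 9.24, 9.27 and 9.25 in HER2 L755S cells, and 7.89, 8.26, 8.28 and 8.35 in PIK3CA E545K cells. All HER2 L755S arrays, including replicate 1, which stood below its group, were above all others. The co-culture was lower than HER2 L755S cells by a difference of -1.19 (SE 0.15, adjusted p = 3.6e-07), and HER2 L755S was higher than PIK3CA E545K cells by 0.94 (SE 0.15, adjusted p = 7.65e-06). CXCL16, a membrane-bound ligand of CXCR6, was 10.19 to 10.55 in the co-culture, 9.66 to 10.14 in HER2 L755S cells and 10.01 to 10.22 in PIK3CA E545K cells, with the highest array of each of the first 2 groups apart from the rest. The co-culture was higher than HER2 L755S cells by 0.49 (SE 0.12, adjusted p = 0.0015). HER2 L755S was lower than PIK3CA E545K cells (difference -0.31, SE 0.12, adjusted p = 0.0305), a call lost without any 1 of HER2 L755S replicates 1, 2 and 3 or PIK3CA E545K replicates 1, 2 and 4 (adjusted p up to 0.0872).

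CXCL10, an interferon-induced chemokine, passed the test without being above background anywhere. It had 4.16, 4.08, 4.22 and 5.10 in the co-culture, 6.30, 5.55, 5.57 and 6.37 in HER2 L755S cells, and 4.43, 3.78, 3.71 and 3.90 in PIK3CA E545K cells. The HER2 L755S arrays were all above the others (adjusted p = 1.15e-07 against PIK3CA E545K cells, 6.3e-06 for the co-culture against HER2 L755S cells), and no fold is given below background. The matching tests of CCL5 and CX3CL1 did not pass in any comparison.

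Among receptors of the IL-6 family, IL6R, OSMR and the shared subunit IL6ST were above background in all 3 groups. IL6R, which binds IL-6, had 9.98, 9.87, 10 and 10.34 in the co-culture, 11.35, 11.89, 11.73 and 11.79 in HER2 L755S cells, and 9.25, 9.40, 8.87 and 9.20 in PIK3CA E545K cells. The 3 groups did not overlap, with the co-culture between the lines. It was lower than HER2 L755S cells (difference -1.64, SE 0.14, adjusted p = 6.04e-10) and higher than PIK3CA E545K cells by 0.87 (SE 0.14, adjusted p = 4.03e-05), and HER2 L755S was higher than PIK3CA E545K cells by 2.51 (SE 0.14, adjusted p = 1.75e-13). OSMR, the receptor subunit for oncostatin M, ran the other way. It had 11.97, 12.04, 11.97 and 12.02 in the co-culture, 9.74, 9.61, 9.91 and 9.57 in HER2 L755S cells, and 12.65, 12.86, 12.78 and 12.77 in PIK3CA E545K cells. These groups also did not overlap. The co-culture was higher than HER2 L755S cells by 2.29 (SE 0.09, adjusted p = 1.45e-15) and lower than PIK3CA E545K cells (difference -0.77, SE 0.09, adjusted p = 1.6e-06), and HER2 L755S was lower than PIK3CA E545K cells (difference -3.06, SE 0.09, adjusted p = 4.37e-18).

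IL6ST, which encodes the shared subunit gp130, had 11.51, 11.81, 11.79 and 11.59 in the co-culture, 12.57, 12.43, 12.40 and 12.43 in HER2 L755S cells, and 11.54, 11.44, 11.30 and 11.54 in PIK3CA E545K cells. HER2 L755S arrays were above all others, and replicate 1 stood above its group. The co-culture was lower than HER2 L755S cells (difference -0.78, SE 0.09, adjusted p = 2.13e-07), and HER2 L755S was higher than PIK3CA E545K cells by 1.00 (SE 0.09, adjusted p = 2.42e-09). The difference of 0.22 between the co-culture and PIK3CA E545K cells did not pass (SE 0.09, adjusted p = 0.0868).

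Among the ligands, IL6 had 6.25, 6.67, 6.62 and 5.29 in the co-culture, 3.74, 3.35, 3.89 and 3.29 in HER2 L755S cells, and 5.66, 5.04, 5.92 and 5.37 in PIK3CA E545K cells. Co-culture replicates 2 and 3 were the 2 arrays above background, and all HER2 L755S arrays were below all others. The test passed for the co-culture against HER2 L755S cells (adjusted p = 5.71e-09), for HER2 L755S against PIK3CA E545K cells (adjusted p = 4.9e-07) and narrowly for the co-culture against PIK3CA E545K cells (adjusted p = 0.039). The last was lost without any 1 of PIK3CA E545K replicates 1, 2 and 4 or co-culture replicates 1, 2 and 3 (adjusted p up to 0.144). LIF, which keeps stem cells undifferentiated in the mouse, averaged 6.25 ± 0.24 in the co-culture, 5.28 ± 0.25 in HER2 L755S cells and 5.58 ± 0.33 in PIK3CA E545K cells (SD, n = 4 each), with 1 co-culture array above background. The co-culture was the higher in both of its comparisons (adjusted p = 0.000114 against HER2 L755S and 0.00855 against PIK3CA E545K cells). IL11, near the background limit everywhere, passed in none.

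CSF1, the growth factor of macrophages, had 8.65, 9.50, 9.25 and 9.21 in the co-culture, 9.13, 9.03, 9.15 and 8.98 in HER2 L755S cells, and 7.59, 8.21, 7.54 and 7.54 in PIK3CA E545K cells. All PIK3CA E545K arrays were lowest, with replicate 2 above its group. The co-culture was higher than PIK3CA E545K cells by 1.43 (SE 0.17, adjusted p = 1.38e-06), HER2 L755S was higher than PIK3CA E545K cells by 1.35 (SE 0.17, adjusted p = 3.6e-07), and the co-culture and HER2 L755S cells overlapped (difference 0.08, SE 0.17, adjusted p = 0.728).

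Of the TNF superfamily, TNFSF10 (TRAIL), a ligand that can trigger apoptosis, had 7.49, 6.78, 7.21 and 7.53 in the co-culture, 8.50, 8.62, 8.94 and 9.31 in HER2 L755S cells, and 7.01, 6.69, 7.30 and 7.17 in PIK3CA E545K cells. The death receptor TNFRSF21 had 8.76, 8.49, 8.63 and 8.95 in the co-culture, 9.59, 9.73, 9.80 and 9.91 in HER2 L755S cells, and 8.71, 8.84, 8.90 and 9.03 in PIK3CA E545K cells. In both genes HER2 L755S arrays were above all others, and the co-culture overlapped PIK3CA E545K cells. TNFSF10 was lower in the co-culture than in HER2 L755S cells by a difference of -1.60 (SE 0.19, adjusted p = 2.82e-07) and TNFRSF21 by one of -1.05 (SE 0.13, adjusted p = 2.82e-07). HER2 L755S was higher than PIK3CA E545K cells by 1.80 (SE 0.19, adjusted p = 2.66e-08) for TNFSF10 and by 0.89 (SE 0.13, adjusted p = 2.27e-06) for TNFRSF21. TNFRSF1A, the main TNF receptor of epithelial cells, and the lymphotoxin gene LTB passed in no comparison, with TNFRSF1A at 10.86 to 11.19 in the co-culture, 11.07 to 11.16 in HER2 L755S cells and 10.90 to 10.98 in PIK3CA E545K cells.

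All 5 NF-kB subunits were higher in HER2 L755S than in PIK3CA E545K cells. The co-culture was lower than HER2 L755S cells in 4 of them and higher than PIK3CA E545K cells in 4, where 26% and 11.1% of all tested genes were, and 30% were higher between the lines. Stretches of promoter are shown for NFKB1 and REL and for the inhibitors NFKBIA, NFKBIZ, TNFAIP3 and TNIP1, whose products feed back on the pathway. These genes are picked examples with a match. NFKB2 has matches too, as has NFKBIB, which was below background on every array, and the window of RELA has none. A link between match and signal was not tested. Capitals mark matches to the NF-kB consensus on either strand, of which TNFAIP3 has 2 neighbours. In GRCh38.p14 they are chr4:102501285-102501344 (plus) for NFKB1, chr2:60881502-60881562 (plus) for REL, chr14:35404796-35404855 (minus) for NFKBIA, chr3:101827742-101827801 (plus) for NFKBIZ, chr6:137867167-137867226 (plus) for TNFAIP3 and chr5:151081042-151081101 (minus) for TNIP1. The first capital lies 49, 47, 81, 223, 67 and 42 bases before the start, in the order listed.
NFKB1: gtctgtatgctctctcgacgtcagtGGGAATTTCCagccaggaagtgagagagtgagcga
REL: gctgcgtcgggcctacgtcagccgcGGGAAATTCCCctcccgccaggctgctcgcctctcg
NFKBIA: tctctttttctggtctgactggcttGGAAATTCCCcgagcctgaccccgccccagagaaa
NFKBIZ: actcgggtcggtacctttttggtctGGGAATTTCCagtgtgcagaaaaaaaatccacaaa
TNFAIP3: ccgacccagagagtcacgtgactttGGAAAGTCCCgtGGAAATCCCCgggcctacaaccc
TNIP1: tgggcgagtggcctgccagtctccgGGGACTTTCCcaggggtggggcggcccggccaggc

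REL (c-Rel), a subunit best known from lymphocytes, differed most among the subunits. It had 10.86, 11.02, 11.30 and 11.11 in the co-culture, 12.56, 12.54, 12.29 and 12.31 in HER2 L755S cells, and 9.49, 9.30, 9.38 and 9.30 in PIK3CA E545K cells. The groups did not overlap. The co-culture was lower than HER2 L755S cells (difference -1.35, SE 0.11, adjusted p = 2.77e-10) and higher than PIK3CA E545K cells by 1.71 (SE 0.11, adjusted p = 8.48e-11). HER2 L755S was higher than PIK3CA E545K cells by 3.06 (SE 0.11, adjusted p = 6.13e-17), an 8.35-fold difference in signal.

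RELB and NFKB2, the subunits of the non-canonical pathway, took the same order. RELB had 7.36, 7.63, 7.83 and 7.50 in the co-culture, 8.48, 8.45, 8.28 and 8.95 in HER2 L755S cells, and 7.14, 6.39, 6.81 and 6.71 in PIK3CA E545K cells. NFKB2 had 10.95, 11.02, 11.09 and 10.75 in the co-culture, 11.76, 11.71, 11.75 and 11.60 in HER2 L755S cells, and 10.63, 10.39, 10.68 and 10.40 in PIK3CA E545K cells. In neither gene did the groups overlap. Against HER2 L755S cells the co-culture differed by -0.96 for RELB (SE 0.17, adjusted p = 6.4e-05) and by -0.75 for NFKB2 (SE 0.10, adjusted p = 1.48e-06). Against PIK3CA E545K cells it differed by 0.82 for RELB (SE 0.17, adjusted p = 0.00107) and by 0.43 for NFKB2 (SE 0.10, adjusted p = 0.00313). Between HER2 L755S and PIK3CA E545K cells the differences were 1.78 for RELB (SE 0.17, adjusted p = 5.84e-09) and 1.18 for NFKB2 (SE 0.10, adjusted p = 7.73e-10).

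NFKB1, which encodes p105 and the p50 subunit of the canonical dimer, was 11.98 to 12.19 in the co-culture, with replicate 2 the lowest and apart from its group, 11.85 to 12.16 in HER2 L755S cells and 11.30 to 11.49 in PIK3CA E545K cells. It was higher than in PIK3CA E545K cells by 0.71 in the co-culture (SE 0.09, adjusted p = 3.78e-06) and by 0.59 in HER2 L755S cells (SE 0.09, adjusted p = 7.55e-06), whereas the co-culture and HER2 L755S cells overlapped (difference 0.13, SE 0.09, adjusted p = 0.263). RELA (p65) was 10.84 to 11.12 in the co-culture, 11.16 to 11.57 in HER2 L755S cells and 10.83 to 11.14 in PIK3CA E545K cells. Here the co-culture stood with PIK3CA E545K cells (difference 0.01, SE 0.11, adjusted p = 0.969) and was lower than HER2 L755S cells (difference -0.42, SE 0.11, adjusted p = 0.00272). HER2 L755S was higher than PIK3CA E545K cells by 0.43 (SE 0.11, adjusted p = 0.00184).

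**Figure D3:**
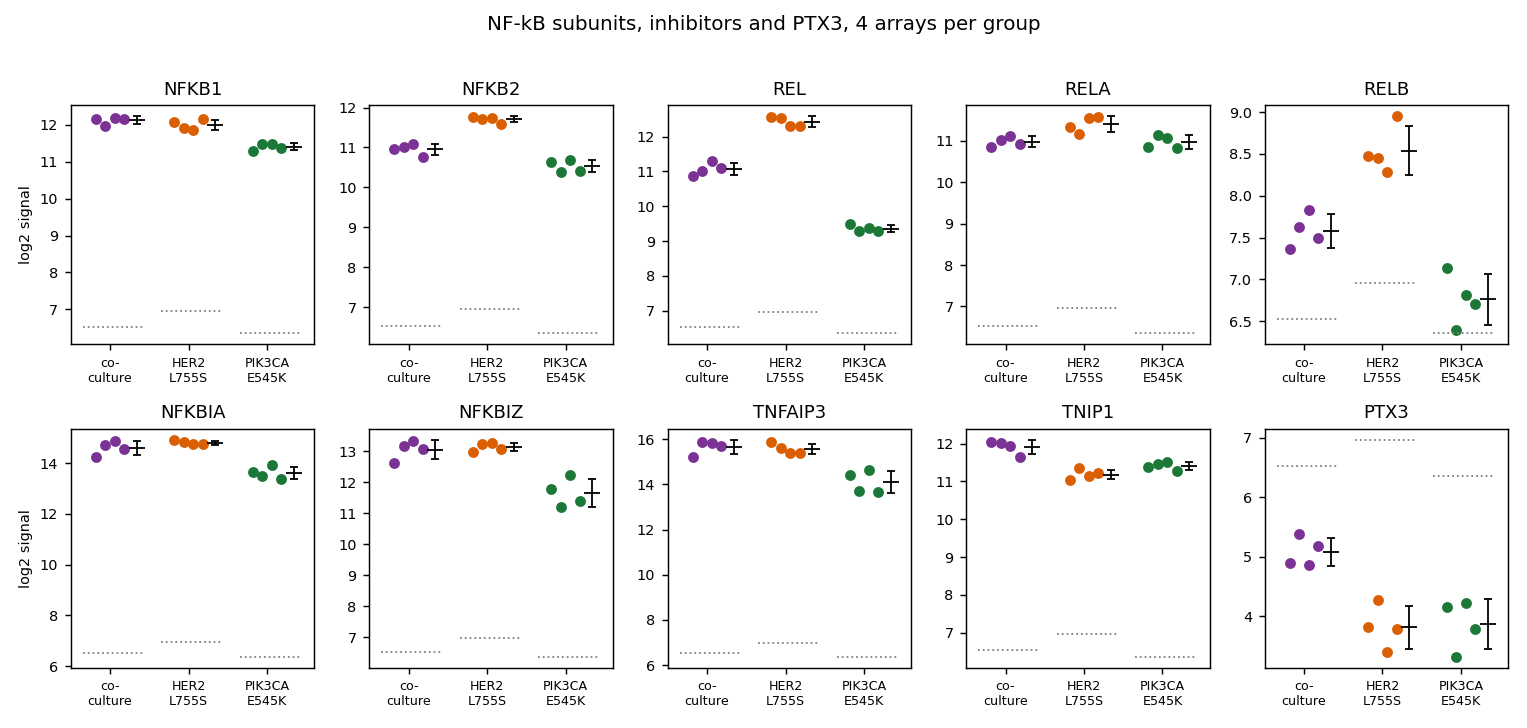
Log2 signal (y axis, a scale of its own in each panel) of 10 members on every array, with the co-culture, HER2 L755S and PIK3CA E545K cells from left to right, the mean and SD (n = 4) beside the points, and dotted lines at the mean background limit of each group. REL, RELB and NFKB2 form 3 separate levels with the co-culture in the middle, NFKBIA, NFKBIZ and TNFAIP3 are lower in PIK3CA E545K cells, and TNIP1 and PTX3 are highest in the co-culture, PTX3 below the limit on every array.

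Of the 5 tested IkB proteins and feedback inhibitors, NFKBIA, NFKBIZ and TNFAIP3 had the co-culture near HER2 L755S cells. NFKBIA, the IkB protein that NF-kB itself induces, had 14.23, 14.72, 14.86 and 14.58 in the co-culture, 14.91, 14.85, 14.74 and 14.74 in HER2 L755S cells, and 13.67, 13.48, 13.93 and 13.36 in PIK3CA E545K cells. NFKBIZ, a nuclear IkB protein needed for secondary targets, had 12.63, 13.18, 13.34 and 13.07 in the co-culture, 12.99, 13.25, 13.26 and 13.08 in HER2 L755S cells, and 11.78, 11.20, 12.22 and 11.40 in PIK3CA E545K cells. TNFAIP3 (A20), a ubiquitin-editing enzyme that shuts the pathway off, had 15.20, 15.87, 15.83 and 15.70 in the co-culture, 15.89, 15.60, 15.41 and 15.40 in HER2 L755S cells, and 14.40, 13.71, 14.65 and 13.68 in PIK3CA E545K cells. In all 3 genes PIK3CA E545K arrays were below all others, and the co-culture overlapped HER2 L755S cells.

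Against PIK3CA E545K cells, the co-culture was higher by 0.99 for NFKBIA (SE 0.11, adjusted p = 9.7e-07), 1.41 for NFKBIZ (SE 0.16, adjusted p = 9.29e-07) and 1.54 for TNFAIP3 (SE 0.17, adjusted p = 5.86e-07). HER2 L755S was higher than PIK3CA E545K cells by 1.20 for NFKBIA (SE 0.11, adjusted p = 4.1e-09), 1.50 for NFKBIZ (SE 0.16, adjusted p = 3.3e-08) and 1.47 for TNFAIP3 (SE 0.17, adjusted p = 1.17e-07). Against HER2 L755S cells the co-culture differed by -0.21, -0.09 and 0.08 in the same order of genes, and none passed (adjusted p = 0.127, 0.667 and 0.744).

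TNIP1, a partner of A20, was highest in the co-culture, with 12.03, 12.01, 11.94 and 11.65, against 11.04, 11.35, 11.13 and 11.21 in HER2 L755S cells and 11.37, 11.46, 11.52 and 11.27 in PIK3CA E545K cells. Every co-culture array exceeded every single-culture array. The co-culture was higher than HER2 L755S cells by 0.73 (SE 0.10, adjusted p = 2.49e-06) and than PIK3CA E545K cells by 0.50 (SE 0.10, adjusted p = 0.000702), while the single cultures differed by -0.23 without passing (SE 0.10, adjusted p = 0.0622). BIRC2 (cIAP1), a ubiquitin ligase of the TNF receptor complex, was 9.65 to 10.06 in the co-culture, 10.31 to 10.53 in HER2 L755S cells and 9.41 to 9.76 in PIK3CA E545K cells. The co-culture was lower than HER2 L755S cells (difference -0.50, SE 0.12, adjusted p = 0.00123) and HER2 L755S was higher than PIK3CA E545K cells by 0.86 (SE 0.12, adjusted p = 1.34e-06). Its difference of 0.36 between the co-culture and PIK3CA E545K cells (SE 0.12, adjusted p = 0.0265) was lost without any 1 of PIK3CA E545K replicates 1, 3 and 4 or co-culture replicates 2 and 4 (adjusted p up to 0.0902).

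Among the effectors, SAA1, an acute-phase apolipoprotein, had the widest range between the lines in the direction of HER2 L755S. It had 12.29, 12.62, 12.45 and 12.53 in the co-culture, 16.09, 16.06, 16.19 and 16.30 in HER2 L755S cells, and 11.20, 10.36, 10.71 and 10.45 in PIK3CA E545K cells. The groups did not overlap. The co-culture was lower than HER2 L755S cells (difference -3.69, SE 0.13, adjusted p = 9.78e-17) and higher than PIK3CA E545K cells by 1.80 (SE 0.13, adjusted p = 6.87e-10). HER2 L755S was higher than PIK3CA E545K cells by 5.48 (SE 0.13, adjusted p = 5.49e-20), a 44.7-fold difference in signal. SAA1 and SAA2 are near-identical in sequence, so their signals cannot be told apart here.

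TNFAIP2, a TNF-induced gene, and SOCS2, a suppressor of cytokine and growth hormone signalling, were lowest in HER2 L755S cells. TNFAIP2 had 8.90, 8.79, 8.76 and 8.94 in the co-culture, 7.47, 6.15, 5.27 and 6.29 in HER2 L755S cells, and 9.72, 9.88, 9.38 and 9.38 in PIK3CA E545K cells. SOCS2 had 8.78, 8.30, 8.17 and 8.15 in the co-culture, 6.35, 6.89, 6.93 and 6.83 in HER2 L755S cells, and 9.85, 9.57, 9.64 and 9.65 in PIK3CA E545K cells. In both, 1 of 4 HER2 L755S arrays was above background and the groups did not overlap. With HER2 L755S arrays held at the background limit where they were under it, the co-culture was at least 3.39-fold higher than HER2 L755S cells for TNFAIP2 and at least 2.52-fold for SOCS2, and HER2 L755S was at least 5.7-fold and 6.34-fold lower than PIK3CA E545K cells. As measured, TNFAIP2 was higher in the co-culture than in HER2 L755S cells by 2.55 (SE 0.27, adjusted p = 4.42e-08) and SOCS2 by 1.60 (SE 0.16, adjusted p = 1.47e-08). HER2 L755S was lower than PIK3CA E545K cells by a difference of -3.29 for TNFAIP2 (SE 0.27, adjusted p = 3.67e-10) and of -2.93 for SOCS2 (SE 0.16, adjusted p = 2.09e-13). SOCS2 was lower in the co-culture than in PIK3CA E545K cells (difference -1.33, SE 0.16, adjusted p = 1.5e-06). The same comparison of TNFAIP2 gave -0.75 (SE 0.27, adjusted p = 0.0474) and was lost without any 1 of the 4 PIK3CA E545K or the 4 co-culture arrays (adjusted p up to 0.132). SOCS3, the usual feedback inhibitor of IL-6 signalling, was below background on every array.

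ICAM1, the adhesion molecule for leukocytes, was 9.54 to 10.11 in the co-culture, 8.96 to 9.38 in HER2 L755S cells and 9.43 to 9.80 in PIK3CA E545K cells. The co-culture was higher than HER2 L755S cells by 0.61 (SE 0.14, adjusted p = 0.000718), and HER2 L755S was lower than PIK3CA E545K cells (difference -0.45, SE 0.14, adjusted p = 0.00796). CEBPD, a transcription factor of the acute phase, was 6.76 to 7.14 in the co-culture, 6.90 to 7.25 in HER2 L755S cells and 5.95 to 6.39 in PIK3CA E545K cells, where 2 of 4 arrays were above background. It was higher than in PIK3CA E545K cells by 0.66 in the co-culture (SE 0.15, adjusted p = 0.00252) and by 0.76 in HER2 L755S cells (SE 0.15, adjusted p = 0.000176).

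The co-culture was next set against a blend of the single cultures on the linear scale, 75% HER2 L755S and 25% PIK3CA E545K. The stated cell shares would give this blend if neither line changed, both held equal RNA per cell and signal was proportional to RNA. Whether RNA per cell was equal and signal proportional is not known here. Of the 43 tested members, 13 were above the blend and 13 below it, against 18.5% and 22.3% of all tested genes. Those above include CSF3 and PTX3, which entered the test through co-culture arrays alone. The median difference of the 43 members from the blend was 0.10, and that of all genes was -0.05. SAA1 averaged 12.47 ± 0.14 in the co-culture (SD, n = 4) against a blend of 15.76, a difference of -3.28 (SE 0.13, adjusted p = 5.07e-15). CXCL14 averaged 5.83 ± 0.32 in the co-culture, below background, against a blend of 10.05 (adjusted p = 5.66e-14). Both were thus far lower than this blend, and IL6R (-1.31, SE 0.13, adjusted p = 4.49e-08), TNFSF10 (-1.31, SE 0.18, adjusted p = 5.06e-06) and CCL28 (-1.01, SE 0.14, adjusted p = 3.03e-06) were lower too.

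The NF-kB subunits divided against the blend. REL was below it (difference -1.0, SE 0.11, adjusted p = 8.8e-08), RELB (difference -0.68, SE 0.17, adjusted p = 0.00212), NFKB2 (difference -0.54, SE 0.10, adjusted p = 9.56e-05) and RELA (difference -0.32, SE 0.10, adjusted p = 0.0129), and NFKB1 was above it by 0.25 (SE 0.08, adjusted p = 0.02). The calls of RELA and NFKB1 rested on single arrays, since RELA was lost without co-culture replicate 1 (adjusted p = 0.0522) and NFKB1 without HER2 L755S replicate 3 or co-culture replicates 3 or 4 (adjusted p up to 0.0626). BIRC2 lay below the blend (difference -0.33, SE 0.11, adjusted p = 0.0222), a call lost without HER2 L755S replicate 2 or co-culture replicates 1 or 3 (adjusted p up to 0.109). NFKBIA, NFKBIZ and TNFAIP3 differed from the blend by 0.01, 0.16 and 0.33, and none passed (adjusted p = 0.977, 0.437 and 0.12).

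Among the members above the blend, CXCL8 exceeded it by 1.22 (SE 0.20, adjusted p = 3.33e-05), OSMR by 0.79 (SE 0.08, adjusted p = 8.09e-08) and TNFAIP2 by 0.87 (SE 0.25, adjusted p = 0.007). CXCL1 was above it by 0.92 (SE 0.22, adjusted p = 0.00191), CCL20 by 0.90 (SE 0.26, adjusted p = 0.00701) and TNIP1 by 0.67 (SE 0.09, adjusted p = 3.28e-06). The CCL20 call was lost with a robust prior (adjusted p = 0.0913). IL6 (adjusted p = 3.44e-07) and LIF (adjusted p = 0.000134) were above the blend too, with most of their arrays below background. The results depend on the cell shares assumed. With equal shares the calls of CXCL8 (0.27, adjusted p = 0.376), OSMR (0.07, adjusted p = 0.617), TNFAIP2 (0.11, adjusted p = 0.804), RELB (-0.33, adjusted p = 0.137), RELA (-0.22, adjusted p = 0.0988) and BIRC2 (-0.13, adjusted p = 0.41) were lost. With 25% HER2 L755S cells in place of 75% the sign turned for CXCL8 (-0.30), OSMR (-0.41), TNFAIP2 (-0.38), REL (0.20), RELB (0.13), NFKB2 (0.03) and BIRC2 (0.10). Those shares also ended 6 calls that kept their sign, namely IL6R (adjusted p = 0.165), IL6ST (adjusted p = 0.45), CXCL10, RELA, CXCL16 and ICAM1. Neither change of shares ended the calls of SAA1, CXCL14, CCL28, TNFSF10 and TNFRSF21 below the blend. The same held for CXCL1, CCL20, TNIP1, IL6 and LIF above it.

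**Figure D4:**
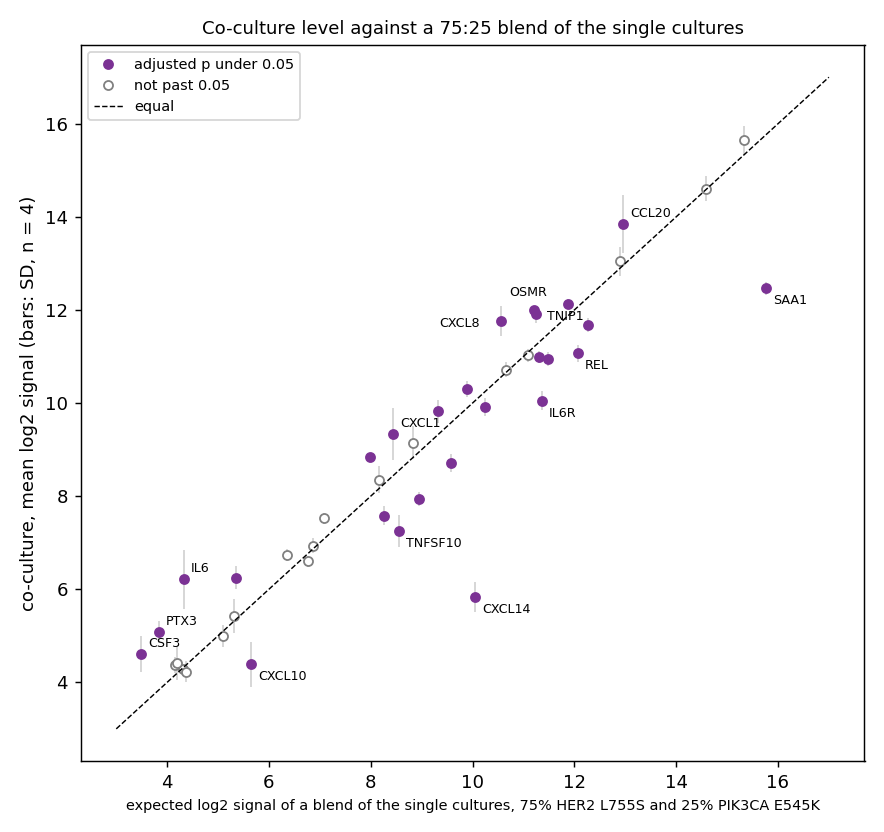
Mean log2 signal of the co-culture (y axis, bars are the SD, n = 4) against the log2 signal of a linear blend of 75% HER2 L755S and 25% PIK3CA E545K cells (x axis) for the 43 tested members, with the dashed line where both are equal and filled points at an adjusted p under 0.05. CXCL14 and SAA1 lie farthest below the line, at 5.83 against 10.05 and at 12.47 against 15.76, while CXCL8, CXCL1, CCL20 and IL6 lie above it.

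A level above both single cultures lies outside every blend of the 2, whatever the shares. Of the 41 members whose place in the test did not rest on co-culture arrays alone, TNIP1 was above both single cultures at an adjusted p under 0.05, where p is the larger of the 2 contrast p-values (adjusted p = 0.00687), by 0.50 over the nearer single culture. With CSF3 and PTX3, which entered the test through co-culture arrays alone, the count was 3 of 43, against 1.01% of all tested genes, and nothing is read from that share. By limma 0 were below both, where 0.845% of all genes were. At an unadjusted p under 0.05, 8 members were above both, with CSF3 and PTX3 among them, and 0 were below both. The share of all genes at that limit was not counted, so nothing is read from these counts. PTX3, a long pentraxin of innate defence, had 4.90, 5.38, 4.87 and 5.19 in the co-culture, 3.82, 4.28, 3.40 and 3.79 in HER2 L755S cells, and 4.16, 3.32, 4.23 and 3.79 in PIK3CA E545K cells. CSF3, the growth factor of neutrophils, had 4.58, 5.15, 4.36 and 4.34 in the co-culture, 3.84, 3.11, 3.24 and 3.53 in HER2 L755S cells, and 3.62, 3.65, 3.75 and 3.45 in PIK3CA E545K cells. In both, every co-culture array exceeded every single-culture array, all arrays were below the background limit, and no fold is given. With no filter, where their entry does not depend on the group, the adjusted p was 0.00153 for PTX3 and 0.00356 for CSF3. With the filter, leaving out any 1 co-culture array removed both from the test, and the count was then 1 without co-culture replicate 2 or replicate 3. CXCL1 (adjusted p = 0.151), CCL20 (0.292), IL6 (0.264) and LIF (0.0686) had co-culture means above both single cultures and did not pass.

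Promoter stretches of CCL20, IL6 and PTX3 are given as picked examples. They are among several members with co-culture means above both single cultures. Of these genes only PTX3 passed that test. It entered the test through co-culture arrays alone and was below background on every array, so nothing is read from that call. Each of the genes shown has a match to the NF-kB consensus in the promoter window, as had 43.5% of members with a window. A link between match and signal was not tested. The match is shown in capitals and its first base lies 79, 73 and 97 bases before the start. The stretches are chr2:227813738-227813797, chr7:22727102-22727161 and chr3:157436728-157436788 of GRCh38.p14, all on the plus strand.
CCL20: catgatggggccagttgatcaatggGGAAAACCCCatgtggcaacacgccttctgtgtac
IL6: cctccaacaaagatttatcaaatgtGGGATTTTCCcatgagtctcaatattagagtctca
PTX3: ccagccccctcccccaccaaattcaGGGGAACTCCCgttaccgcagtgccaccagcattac

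The replicate arrays of a group varied together in many of these genes. In the co-culture, replicates 2 and 3 were the 2 highest arrays for 14 of the 30 members above background (46.7%), against 16.7% of the 8649 genes above background. They were CXCL1, CXCL2, CXCL8, CCL20, CCL28, IL6ST, CSF1, NFKB2, RELA, RELB, NFKBIA, NFKBIZ, TNFAIP3 and ICAM1. In PIK3CA E545K cells, replicates 1 and 3 were the 2 highest for 13 of 29 members (44.8%), against 17.3% of 8905 genes, among them CXCL1, CXCL2, CXCL3, CXCL8, CCL20, NFKB2, REL, RELB, NFKBIA, NFKBIZ, TNFAIP3, SAA1 and ICAM1. In HER2 L755S cells no pair of replicates was on top for more than 6 of 27 members (22.2%), against 12.7% of genes for replicates 1 and 2 and 22.3% for replicates 3 and 4. These pairs were picked after their values were seen, and the replicates share whatever differed between arrays, so the counts describe these arrays and carry no test. CXCL1 and CCL20 had SDs of 0.56 and 0.63 in the co-culture, 0.32 and 0.24 in HER2 L755S cells, and 0.48 and 0.78 in PIK3CA E545K cells.

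**Figure D5:**
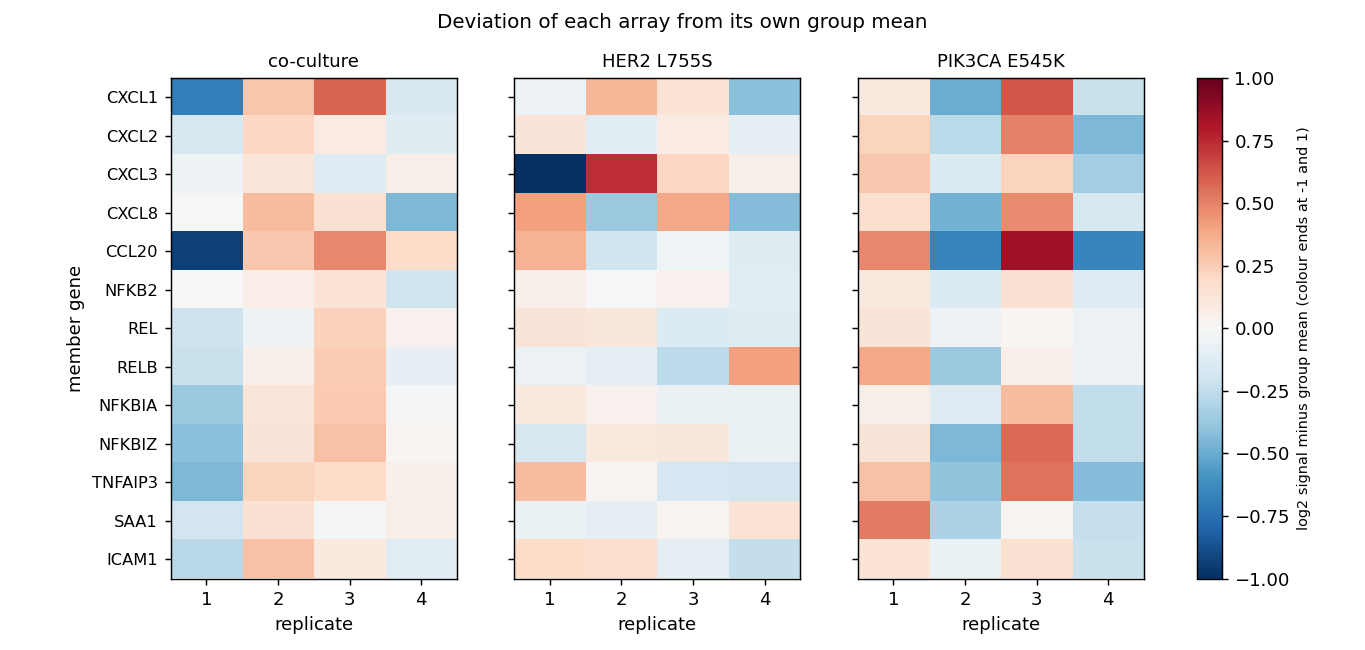
Deviation of each array from the mean of its own group (colour, log2 signal, with the scale ending at -1 and 1) for 13 members (rows) on the 4 replicates (columns) of the co-culture, HER2 L755S and PIK3CA E545K cells, from left to right. The rows are the 13 members whose 2 highest PIK3CA E545K arrays were replicates 1 and 3, so that pair follows from the choice of rows. Most rows are also red in replicates 2 and 3 of the co-culture. The HER2 L755S panel shows no such pair, but its rows were not chosen by its own arrays, so the panels are not a fair contrast.

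The wider pathway was described with lists of genes that are not members. Of 35 upstream components of NF-kB signalling, 26 were tested. In the co-culture, 6 of the 26 exceeded and 14 fell below their level in HER2 L755S cells, against 24.9% and 26% of all tested genes, and 2 were higher and 1 lower than in PIK3CA E545K cells, against 11.1% and 14.6%. Between the lines, 15 were higher and 7 lower in HER2 L755S than in PIK3CA E545K cells, against 30% and 29.4%. The medians of the list were -0.47, -0.03 and 0.45 in these comparisons. CYLD, a deubiquitinase that restrains NF-kB, averaged 8.47 in the co-culture, 10.43 in HER2 L755S cells and 7.56 in PIK3CA E545K cells. It was lower in the co-culture than in HER2 L755S cells (difference -1.97, SE 0.14, adjusted p = 4.39e-11) and higher than in PIK3CA E545K cells by 0.90 (SE 0.14, adjusted p = 3.68e-05), and HER2 L755S was higher than PIK3CA E545K cells by 2.87 (SE 0.14, adjusted p = 2.56e-14). The kinase IKBKE and the double-stranded RNA receptor TLR3 were higher in HER2 L755S than in PIK3CA E545K cells by 1.90 (SE 0.15, adjusted p = 1.35e-10) and 1.53 (SE 0.13, adjusted p = 3.27e-10), and OTULIN, a deubiquitinase of linear ubiquitin chains, was lower (difference -1.38, SE 0.13, adjusted p = 4.25e-09).

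Of 19 further genes of the JAK and STAT3 pathway of IL-6 cytokines, 17 were tested. In the co-culture 1 was higher and 8 lower than in HER2 L755S cells, and 1 higher and 3 lower than in PIK3CA E545K cells, while 8 were higher and 5 lower in HER2 L755S than in PIK3CA E545K cells. The shares over all tested genes are those given for the list before, and several of these counts are near them. JAK1 was lower in the co-culture than in HER2 L755S cells (difference -1.16, SE 0.08, adjusted p = 3.83e-11), and HER2 L755S was higher than PIK3CA E545K cells by 1.48 (SE 0.08, adjusted p = 2.78e-13). STAT3 was higher in HER2 L755S than in PIK3CA E545K cells by 1.16 (SE 0.10, adjusted p = 1.28e-09). LIFR, the receptor of LIF, averaged 7.72 in the co-culture, 5.74 in HER2 L755S cells, under every background limit, and 8.46 in PIK3CA E545K cells (adjusted p = 4.32e-08 for the co-culture against HER2 L755S and 1.21e-10 for HER2 L755S against PIK3CA E545K cells). Of 19 chemokine receptors only 6 passed the filter. CXCR5 in the co-culture against HER2 L755S cells (means 4.75 and 4.32) and ACKR3 in HER2 L755S against PIK3CA E545K cells (means 4.33 and 4.75) passed the test, at means under every background limit.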

How the data were processed

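Total RNA of the 12 samples was labelled from 5 µg with the GeneChip WT PLUS kit, per the labels' protocols. Per the submitters' processing notes, the authors used the Transcriptome Analysis Console to make the deposited log2 probe-set signals. The version, background correction and normalization are not given in the sources used here. The values were used as deposited. The table has 24351 probe sets, and a single gene symbol names 17709. The brightest was kept for the 20 genes with several, and each member has 1.

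Probe sets above the 30th percentile of their array on at least 4 arrays were fitted in limma 3.58.1 (R 4.3.3) with 3 groups and a trended prior. Tests were two-sided, with Benjamini-Hochberg adjustment over all 12774 genes. The standard error of the blend came from the delta method. The fits were checked on simulated data. Every array was left out in turn, and filter, normalization, prior, a margin of 0.5, blend shares and a replicate block were varied. Array values are printed for members that passed with a difference of at least 1 (log2) between any pair of groups or that lay outside both single cultures, and ranges for the others. With 4 arrays per group, the number of arrays limits the precision. Members and lists were chosen with earlier results of these data known.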

Additional observations from a re-analysis of the deposited data

Results flagged for a closer look

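In 6 of 86 groups of 4 arrays of members above background, 1 array stood apart from the others by Dixon's ratio at its 95% critical value. Chance flags about 1 in 20 groups. CXCL16 was 10.55 on co-culture replicate 3, against 10.19 to 10.24 on the other arrays of that group, and 10.14 on HER2 L755S replicate 4, against 9.66 to 9.71. CCL28 was 8.77 on HER2 L755S replicate 1, against 9.24 to 9.27. IL6ST was 12.57 on HER2 L755S replicate 1, against 12.40 to 12.43. NFKB1 was 11.98 on co-culture replicate 2, against 12.17 to 12.19. CSF1 was 8.21 on PIK3CA E545K replicate 2, against 7.54 to 7.59. The calls of CCL28, IL6ST and CSF1 held without any 1 array.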

How the results depend on the processing

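Over the 105 member results that passed the threshold, 1999 of 2102 recomputed values kept direction and call, 96 kept the direction and lost the call, and 7 turned. The 7 arose with blend shares of 25% HER2 L755S and 75% PIK3CA E545K: CXCL8 -0.30, OSMR -0.41, TNFAIP2 -0.38, REL 0.20, RELB 0.13, NFKB2 0.03 and BIRC2 0.10. With those shares 7 members were called below the blend, not all of them among those called below the blend with 75% HER2 L755S cells. Equal shares ended 6 of the 26 calls against the blend and left 1112 of all genes above it. Testing against a margin of 0.5 in place of 0 left 7 members higher in the co-culture than in HER2 L755S cells, and 8 higher and 1 lower than in PIK3CA E545K cells. The 7 include CSF3 and PTX3 and the 8 include PTX3, which entered the test through co-culture arrays alone. The shares of all genes with this margin are not given here, so nothing is read from these counts. A stricter filter left 1 member above both single cultures, since CSF3 and PTX3 were no longer tested. Leaving out 1 array gave 2 to 4 members lower in the co-culture than in PIK3CA E545K cells and 1 to 4 above both single cultures. With the 99th percentile of the negative controls as the limit, 19 members were above background in PIK3CA E545K cells. Arrays of different groups with the same replicate number did not deviate together (correlations of -0.04 to 0.06, the same number the best match in 2 of 12). No pairing by number was thus seen in the signals, and whether same-numbered arrays were handled together is not known here. A replicate block changed none of the 105 calls, with 20 members higher and 7 lower in HER2 L755S than in PIK3CA E545K cells. Of the named calls, IL6 and TNFAIP2 in the co-culture against PIK3CA E545K cells were also lost with no filter or no trended prior, TNFAIP2 also with quantile normalization or a robust prior, and CXCL16 between the lines and NFKB1 against the blend with quantile normalization. Dim signals limit what can be said of 18 members above background on no array. The cause of the changes was not tested.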
